A study of Sus scrofa with 20 samples.

Results

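The longissimus muscles of 20 female pigs were set in order by how strongly they expressed the genes of the main fibril collagens, and the 7 muscles of highest expression were compared with the 7 of lowest expression. These 14 arrays of 20, together with 6 arrays between them, came from a study of feed efficiency, in which 10 pigs had low and 10 had high residual feed intake (RFI), the feed eaten beyond what growth and maintenance predict. All animals were female and the labels name no strain, age, diet or treatment. Total RNA of each muscle was hybridised to 1 Affymetrix Snowball array, a pig expression array whose values are given as a log2 signal per probe set. Each array was taken as 1 animal, because the series describes 10 pigs per RFI group, and precision is limited by how many arrays there were.

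The classes were selected on the measured signals of 3 genes, so the order of those genes is a description and carries no test. Each probe set was regressed on the mean of the array's background control probe sets, and the score of an array was the mean residual of COL1A1, COL1A2 and COL3A1. RFI was ignored. The comparison tests whether other genes differed along with this score; it is an observed difference among untreated animals and not the effect of a treatment. Because the tissue is bulk muscle, more fibroblasts and more collagen RNA per fibroblast cannot be told apart.

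Type I collagen is a triple helix of the chains encoded by COL1A1 and COL1A2, and type III collagen is built from the single chain encoded by COL3A1. Both form the fibrils of the connective tissue sheaths around muscle fibres and bundles, and both are made mainly by fibroblasts and fibro-adipogenic progenitors rather than by muscle fibres. Their chains are folded, hydroxylated and exported by dedicated endoplasmic reticulum proteins, trimmed and cross-linked outside the cell, decorated by minor collagens and small proteoglycans, and removed by metalloproteinases.

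The score lay between 0.089 and 0.427 in the high class, with a median of 0.227, against -0.422 to -0.089 and a median of -0.218 in the low class. The 6 middle arrays lay between -0.053 and 0.064. The last array inside the high class had 0.089 and the first outside it 0.064, and the last array outside the low class had -0.053 and the first inside it -0.089, so the class limits fell in a continuous series and not in a gap. The high class held 5 low RFI and 2 high RFI animals, the middle class 3 of each, and the low class 2 low RFI and 5 high RFI animals. Class and RFI were therefore unequally mixed. The score averaged 0.101 ± 0.203 in low RFI animals and -0.101 ± 0.271 in high RFI animals (SD, n = 10 each), and both groups spanned most of its range.

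COL1A1, the probe set SNOWBALL_014493_s_st, had an adjusted log2 signal of 9.71 at its lowest, 9.96 at the median and 10.06 at its highest in the high class, against 9.03, 9.29 and 9.47 in the low class. COL1A2, the probe set SNOWBALL_012538_st, had 9.67, 9.91 and 10.23 in the high class, against 9.33, 9.55 and 9.68 in the low class. COL3A1, the probe set SNOWBALL_018090_st, had 10.13, 10.31 and 10.53 in the high class, against 9.63, 9.78 and 9.96 in the low class. The classes did not overlap for COL1A1 and COL3A1, and for COL1A2 they met at their edges. The mean differences were 0.64 for COL1A1, 0.45 for COL1A2 and 0.52 for COL3A1 on the log2 scale. COL1A1 had 4 further probe sets that did not enter the score. Those with mean signals of 8.25 and 9.46 were higher in the high class, by 0.96 and 0.84, and one with a mean of 4.73 went the other way, at -0.13. The last one of COL1A1 and the second probe set of COL3A1 differed by 0.22 each, at mean signals of 3.34 and 3.20, below the background control mean of 3.64.

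**Figure D1:**
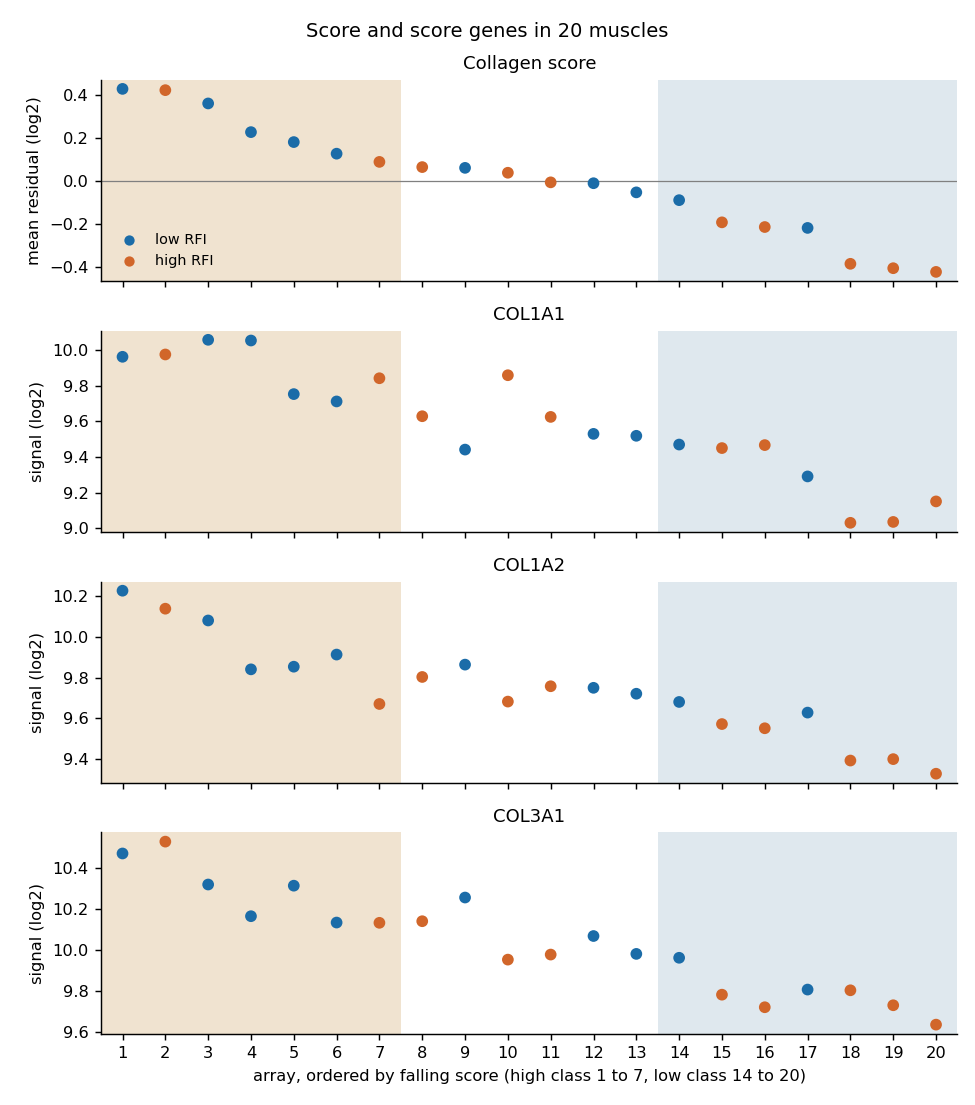
Collagen score and background-adjusted log2 signal of its 3 genes (vertical axes) in each of 20 arrays, ordered by falling score (horizontal axis); blue points are low RFI and orange points high RFI animals, and the shaded bands mark the high class on the left and the low class on the right. The score ran from 0.427 to -0.422 without a break at either class limit, and 5 of 7 high-class arrays were of low RFI against 2 of 7 low-class arrays.

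The muscle identity of the arrays was plain in both classes: the fast fibre calcium store gene CASQ1 and the fast myosin gene MYH4 had mean log2 signals of 13.3 and 12.9, against a background control mean of 3.64. The array background lay between 3.49 and 3.90 in the high class and between 3.48 and 3.89 in the low class. The hybridisation controls, which are spiked into the hybridisation mix and hold no muscle RNA, lay higher in the high class, at 6.75 to 7.31 with a median of 6.81, against 6.46 to 6.80 with a median of 6.51 in the low class. Their part in the results was not tested beyond a fit with them as a covariate, which is described after the gene lists.

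After correction for the number of probe sets tested, no gene differed between the classes. Of 12114 genes tested, 0 (0%) had an adjusted p under 0.05 in limma's fit with Benjamini-Hochberg adjustment over 33397 probe sets, and the smallest adjusted p was 0.163. At an unadjusted p under 0.05, 511 genes (4.22%) were higher and 396 genes (3.27%) were lower in the high class, against 605.7 that chance would give in both directions together. The high-class arrays all lay above the low-class arrays for 21 genes (0.173%) and all below them for 3 genes (0.0248%). The 95% confidence interval of a gene's difference had a median half-width of 0.29. The gene differences that follow are therefore given as values with their standard error, and none of them passed the adjusted threshold between classes.

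The slope on the score over all 20 arrays used the middle animals as well. Over all tested probe sets, 0 genes (0%) had a positive and 2 genes (0.0165%) a negative slope at an adjusted p under 0.05. Among probe sets with a mean log2 signal of at least 5, an alternative added after the data were seen that left 9900 probe sets and 5100 genes to adjust over, 26 genes (0.510%) had a positive and 11 genes (0.216%) a negative slope. In that bright set, 7 of 126 genes of the matrix lists passed, all with a positive slope: MMP14, COL5A2, FBLN1, BGN, COL5A1, AEBP1 and FSTL1. Their adjusted p ran from 0.0134 for MMP14 and COL5A2 to 0.0429 for FSTL1. Their slopes, in log2 signal per log2 unit of score, were 0.69 for MMP14, 0.77 for COL5A2, 0.996 for FBLN1, 0.91 for BGN, 0.89 for COL5A1, 0.83 for AEBP1 and 0.71 for FSTL1.

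The genes of the extracellular matrix as a whole leaned to the high class. Of 225 genes tested in 14 matrix lists, 168 (74.7%) were higher in the high class, against 51.8% of all genes, and their median difference was 0.10, against 0.01 for all genes. At an unadjusted p under 0.05, 35 of the 225 (15.6%) were higher and 1 (0.444%), the peptidase gene DPP4, was lower. The classes did not overlap for 5 of them, all higher: COL5A2, BGN, MMP14, FSTL1 and CCDC80. CCDC80, a matrix glycoprotein named after its values were seen, differed by 0.32 ± 0.12 (SE).

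Among the minor fibril collagens, the type V chains stood out, but the list as a whole did not move as 1 group. Of 7 genes tested 4 were higher (57.1%, against 51.8% of all genes) and 3 lower, with a median of 0.16. That median was 0.06 with RFI as a term and 0.03 with every array put in the high or the low class. With the hybridisation controls as a covariate it was 0.30. COL5A2, whose protein joins type I fibrils and limits their width, had an adjusted log2 signal of 7.29, 7.47 and 7.60 (lowest, median, highest) in the high class, against 6.87, 7.05 and 7.22 in the low class. Every high-class array lay above every low-class array. The difference was 0.43 ± 0.09 (SE, n = 7 each), with an unadjusted p of 0.000181 and an adjusted p of 0.262. COL5A1, the other main type V chain, had 7.26, 7.55 and 7.99 in the high class, against 6.68, 7.14 and 7.48 in the low class, with overlap. Its difference was 0.47 ± 0.13, and 3 of its 4 probe sets pointed the same way.

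COL12A1, a fibril-associated collagen that coats type I fibrils, had 6.58, 6.75 and 7.21 in the high class, against 5.88, 6.39 and 6.77 in the low class. The classes overlapped, and the difference was 0.48 ± 0.17, with all 3 probe sets higher. COL21A1, also a fibril-associated chain, differed by 0.47 ± 0.20, and its other probe set went the opposite way. COL14A1, which binds fibrils and decorin, differed by 0.11 ± 0.16. Thus the fibril-associated chains did not move as 1 group: 6 of 8 were higher, 2 at an unadjusted p under 0.05, with a median of 0.07.

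COL6A3, a chain of the beaded type VI filaments that link cells to fibrils, had 9.18, 9.65 and 9.77 in the high class, against 7.36, 9.20 and 9.51 in the low class. The difference of 0.56 ± 0.24 rested largely on the low-class array of high RFI animal 2 at 7.36, and without that array it was 0.29. With the hybridisation controls as a covariate it was also 0.29. The partner chain COL6A2 differed by 0.20 ± 0.14. COL4A1, a basement membrane chain, had 7.20, 7.54 and 7.68 in the high class, against 7.06, 7.19 and 7.41 in the low class, a difference of 0.28 ± 0.11, and its neighbour chain COL4A2 differed by 0.17 ± 0.10. Of 23 basement membrane genes tested 17 were higher and 6 lower, from -0.22 to 0.28, with a median of 0.07. Of the 23, 2 (8.70%) were higher at an unadjusted p under 0.05, against 4.22% of all genes, and 0 lower. Within both RFI groups 12 of 23 were higher, against 3290 of all 12114 genes.

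Of all 35 collagen chain genes tested beside the score genes, 24 were higher in the high class, 6 at an unadjusted p under 0.05 and 0 lower at that level, with a median of 0.07. Those 6 differed by 0.28 to 0.56, and the other 29 by -0.22 to 0.24. Of these 29, 14 had a mean signal below the background controls, and whether dimness made their differences smaller was not tested. Split by brightness after the values were seen, 11 of 11 chains with a mean of at least 6 were higher, with a median of 0.24, against 13 of 24 dimmer chains with a median of 0.01.

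**Figure D2:**
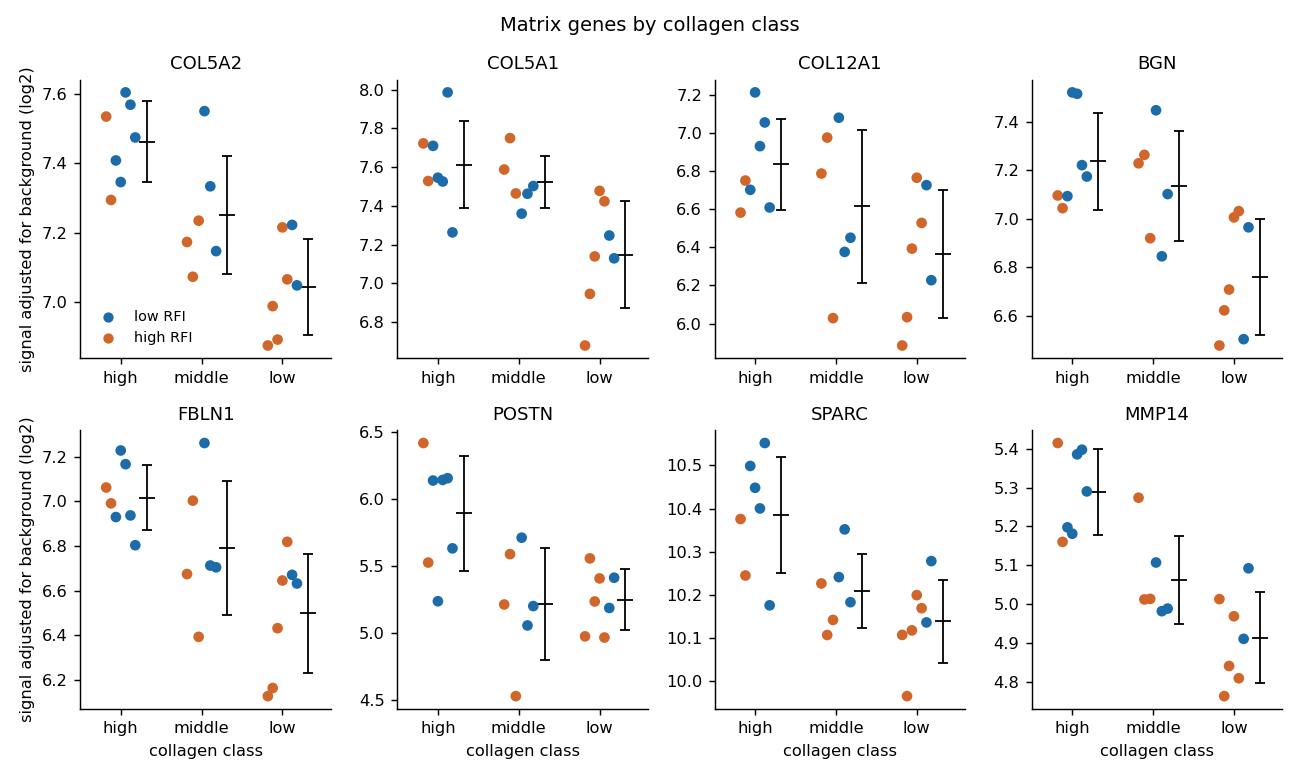
Background-adjusted log2 signal (vertical axes) of 8 matrix genes in the high, middle and low collagen classes; points are arrays, blue for low RFI and orange for high RFI, and black bars show the class mean ± SD (n = 7, 6 and 7). All high-class arrays lie above all low-class arrays for COL5A2, BGN and MMP14, and the classes overlap for the other genes.

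Small leucine-rich proteoglycans bind the surface of collagen fibrils and space them, and 9 of 11 were higher, 3 at an unadjusted p under 0.05, with a median of 0.16. That median was 0.03 with the 10 highest against the 10 lowest arrays and 0.05 with RFI as a term. BGN (biglycan) had an adjusted signal of 7.04, 7.17 and 7.52 in the high class, against 6.48, 6.71 and 7.03 in the low class. Its classes just failed to overlap, and the difference was 0.49 ± 0.13. FMOD (fibromodulin), which directs cross-linking, differed by 0.37 ± 0.15, and OGN (osteoglycin) by 0.36 ± 0.15; both overlapped.

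In the elastic fibre list 11 of 13 genes were higher, 2 at an unadjusted p under 0.05. FBLN1 (fibulin 1), an elastic fibre and basement membrane protein made by fibroblasts, had 6.80, 6.99 and 7.23 in the high class, against 6.13, 6.63 and 6.82 in the low class. The ranges touched only at the edge, and the difference was 0.53 ± 0.14. ELN, the gene of elastin itself, had 5.94, 6.19 and 6.49 in the high class, against 5.72, 5.92 and 6.06 in the low class, a difference of 0.35 ± 0.11 in which both probe sets pointed the same way.

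The matricellular and adhesive glycoproteins, secreted proteins that tie cells to the matrix, leaned furthest among the matrix lists by count: 25 of 28 were higher, 9 at an unadjusted p under 0.05 and 0 lower, with a median of 0.16. The mean level of the list was 6.31, 6.49 and 6.66 (lowest, median, highest) in the high class, against 6.14, 6.28 and 6.50 in the low class. POSTN (periostin), which promotes collagen cross-linking and is raised in growing and healing tissue, had 5.24, 6.14 and 6.42 in the high class, against 4.97, 5.24 and 5.56 in the low class. Most high-class arrays stood above the low class but 2 lay within its range, and the difference was 0.67 ± 0.19.

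SPARC, a collagen-binding protein secreted beside type I collagen, had 10.18, 10.40 and 10.55 in the high class, against 9.97, 10.14 and 10.28 in the low class. The difference of 0.25 ± 0.08 was small and the classes overlapped. AEBP1, a collagen-binding protein needed for connective tissue strength, differed by 0.49 ± 0.12. ECM1 (extracellular matrix protein 1) differed by 0.40 ± 0.12, and ABI3BP by 0.27 ± 0.09.

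For collagen folding, of 17 genes for procollagen folding and modification 13 were higher with a median of 0.11. Only 1 (5.88%) was higher at an unadjusted p under 0.05, near the 4.22% of all genes, and 0 lower. It was PPIB, a prolyl isomerase that acts on collagen chains in the endoplasmic reticulum, at 0.24 ± 0.09. SERPINH1, the collagen chaperone HSP47, had 8.03, 8.57 and 8.88 in the high class, against 7.71, 8.03 and 8.55 in the low class. Its classes overlapped widely, its difference of 0.46 ± 0.25 had an unadjusted p of 0.083, and its other probe set went the opposite way. Of 12 genes for cleavage and cross-linking 8 were higher and 0 reached that level in either direction; BMP1, the procollagen C-proteinase, differed by 0.28 ± 0.14.

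PSAT1, an enzyme of serine synthesis and so of the supply of glycine, had 3.64, 4.72 and 6.41 in the high class, against 3.15, 3.54 and 4.33 in the low class. The high class was spread over a wide range that overlapped the low class, and the difference was 1.11 ± 0.36. SEC24D, a coat protein of the vesicles that carry procollagen, differed by 0.29 ± 0.14. The export and precursor list as a whole had 8 of 13 genes higher (61.5%, against 51.8% of all genes), with a median of 0.14 that was 0.01 with RFI as a term; within high RFI 6 of 13 were higher.

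The list that joins genes of matrix breakdown with their inhibitors also leaned to the high class. Of 26 genes for breakdown and its inhibitors 19 were higher, 6 at an unadjusted p under 0.05, and 1 (DPP4) was lower at that level. Within low RFI 19 of 26 were higher (median 0.14) and within high RFI 14 of 26 (median 0.08). In both groups 11 of 26 were higher, against 3290 of all 12114 genes. MMP14, a membrane collagenase that activates MMP2, had 5.16, 5.29 and 5.42 in the high class, against 4.76, 4.91 and 5.09 in the low class. The classes did not overlap, and the difference was 0.39 ± 0.09, with an unadjusted p of 0.000171 and an adjusted p of 0.262. MMP2 (gelatinase A) differed by 0.34 ± 0.13, and TIMP2, an inhibitor that also takes part in MMP2 activation, by 0.32 ± 0.11 with all 5 of its probe sets higher. ADAM12, a membrane protease of activated mesenchymal cells, differed by 0.46 ± 0.14. DPP4, a surface peptidase found on a fibroblast subset, differed by -0.24 ± 0.09, and 2 of its 4 probe sets pointed each way.

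In TGF-beta and fibrogenic signalling 24 of 33 genes were higher (72.7%, against 51.8% of all genes), with a median of 0.05. At an unadjusted p under 0.05, 4 (12.1%) were higher, against 4.22% of all genes, and 0 lower. Within low RFI 19 of 33 were higher (median 0.03) and within high RFI 18 of 33 (median 0.01). In both groups 7 of 33 were higher, against 3290 of all 12114 genes. FSTL1, a secreted follistatin-like protein, had 8.10, 8.31 and 8.56 in the high class, against 7.72, 7.87 and 7.99 in the low class. Every high-class array lay above every low-class array, the difference was 0.44 ± 0.10, and 2 of its 3 probe sets pointed the same way. TGFBR3, the TGF-beta coreceptor betaglycan, differed by 0.29 ± 0.12, GREM1, a BMP antagonist, by 0.27 ± 0.12, and SMAD3, a transducer of the TGF-beta signal, by 0.24 ± 0.10. Of 19 matrix receptors and integrins 14 were higher. Only 1 (5.26%) was higher at an unadjusted p under 0.05, near the 4.22% of all genes, and 0 lower. It was the dystroglycan gene DAG1, at 0.33 ± 0.11. NID1, which links laminin to type IV collagen, differed by 0.23 ± 0.10.

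**Figure D3:**
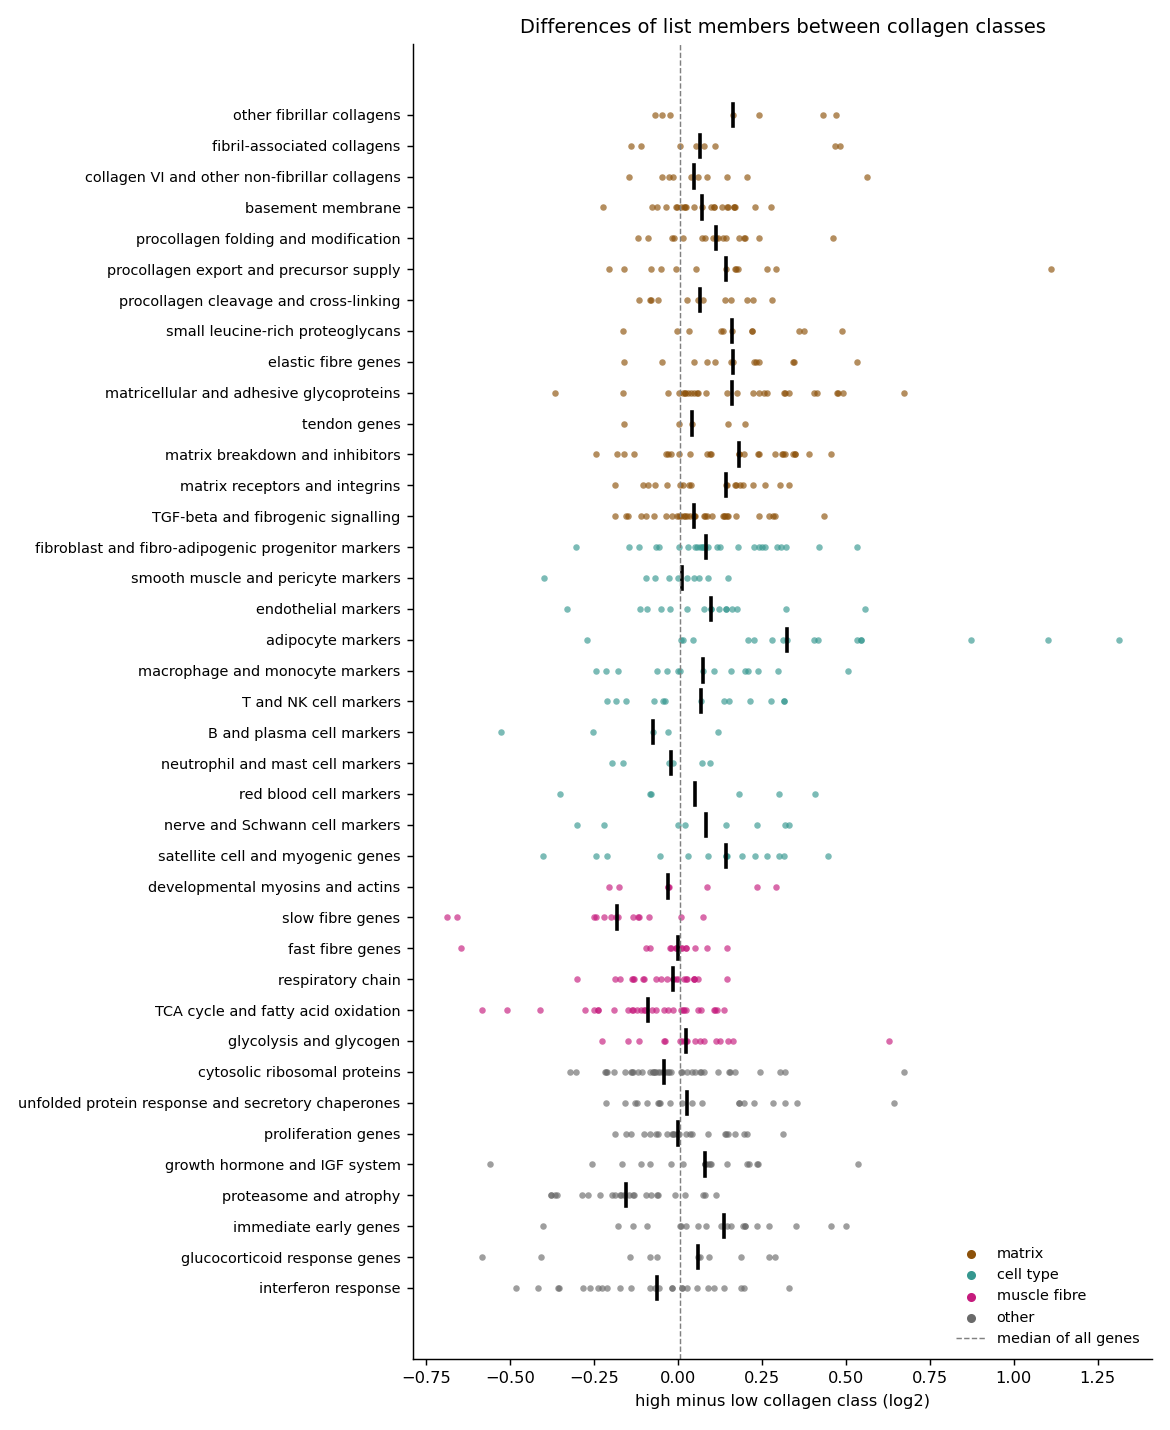
Difference of the high minus the low collagen class (horizontal axis, log2) for every tested member of each gene list (rows); points are genes, black bars the median of the list, and the dashed line the median of all genes. The matrix lists and the adipocyte list lie mostly to the right of the line, and the slow fibre and the proteasome and atrophy lists mostly to its left.

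Markers of fibroblasts and fibro-adipogenic progenitors, the cells that make most fibril collagen, were higher for 21 of 26 genes, 5 at an unadjusted p under 0.05, with a median of 0.08. The mean level of the list was 6.32, 6.45 and 6.52 in the high class, against 6.26, 6.31 and 6.37 in the low class, and 1 of the 26 genes had a mean below the background controls. THY1, a surface marker of fibroblasts, differed by 0.32 ± 0.11, and CLEC3B (tetranectin) by 0.42 ± 0.15. This list shares FBLN1 and MFAP5 with the elastic fibre list and DPT with the matricellular list.

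Fat cell markers had a larger median difference than any of the matrix lists. Of 17 adipocyte genes 16 were higher, 4 at an unadjusted p under 0.05, with a median of 0.32, and 2 of the 17 had a mean below the background controls. The mean level of the list was 6.02, 7.09 and 7.16 in the high class, against 6.22, 6.40 and 6.75 in the low class. Of the 7 high-class arrays 5 lay above the whole low class, but the lowest high-class array lay below it.

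SCD, the desaturase of fatty acid synthesis, had 6.04, 8.30 and 9.02 in the high class, against 5.45, 6.87 and 7.58 in the low class, a difference of 1.31 ± 0.47. ACACA, which makes malonyl-CoA for the same pathway, differed by 1.101 ± 0.288 with all 4 probe sets higher, and CIDEA, a lipid droplet protein, by 0.32 ± 0.15. The defining fat cell genes, named here outside the rule for named genes, differed by 0.87 ± 0.46 for ADIPOQ (adiponectin), 0.55 ± 0.26 for FABP4 (the fatty acid carrier) and 0.28 ± 0.19 for PLIN1 (perilipin 1). With the mean of the adipocyte markers as a covariate, the median of the 14 matrix lists was 0.09, against 0.10 without it. COL5A2 then differed by 0.36, BGN by 0.50 and MMP14 by 0.39. The median of the elastic fibre list was 0.08 in that fit, against 0.16 without the covariate. That of the procollagen folding and modification list was 0.14, against 0.11. SCD, ACACA and CIDEA are members of that marker mean, so their own values in that fit are not given. The part of fat content in the matrix differences was not tested beyond these values.

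Of 15 macrophage and monocyte markers 10 were higher and 0 reached an unadjusted p under 0.05; the list's mean level was 4.74, 5.09 and 5.40 in the high class, against 4.72, 5.07 and 5.19 in the low class, and 3 of the 15 had a mean below the background controls. Of 10 smooth muscle and pericyte markers 5 were higher and 0 reached that level. Of 16 endothelial markers 11 were higher with a median of 0.10, and 1 (6.25%) was higher at that level, against 4.22% of all genes. Of 15 satellite cell and myogenic genes 11 were higher with a median of 0.14. At an unadjusted p under 0.05, 1 (6.67%) was higher and 1 (6.67%) lower, against 4.22% and 3.27% of all genes. Within low RFI 9 of 15 were higher (median 0.08), within high RFI 6 of 15 (median -0.03), and in both groups 3 of 15. PAX7, the transcription factor that marks satellite cells, differed by 0.32 ± 0.11, in a list whose members ran from -0.40 to 0.45. PAX5, a B cell factor near the background, was 1 of the 3 genes whose high-class arrays all lay below the low class, at -0.25 ± 0.11; the other two were NCOA2 and, named after its values were seen, the cilium gene IQCB1 at -0.34 ± 0.12.

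Slow fibre genes leaned to the low class. Only 2 of 14 were higher in the high class, against 51.8% of all genes, 0 reached an unadjusted p under 0.05 in either direction, and the median was -0.18. The mean level of the list was 8.57, 9.30 and 9.81 in the high class, against 8.98, 9.35 and 9.94 in the low class, a wide overlap. PLN (phospholamban), the brake on the slow fibre calcium pump, differed by -0.69 ± 0.36, MYOZ2, a slow fibre Z disc protein, by -0.66 ± 0.35, and MYH7B by -0.24 ± 0.14. With the hybridisation controls as a covariate the median was -0.47, and without the array of low RFI animal 8 it was -0.02.

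Of 15 fast fibre genes 8 were higher, with a median of 0.00; within low RFI 3 of 15 were higher (median -0.04) and within high RFI 12 of 15 (median 0.06), and the difference between the RFI groups was not tested for the list. MYH2, the fast oxidative (type IIA) myosin, had 9.15, 10.08 and 10.74 in the high class, against 10.15, 10.68 and 10.84 in the low class, and was 1 of its list at an unadjusted p under 0.05, at -0.65 ± 0.28. PDK4, a kinase that inhibits the pyruvate dehydrogenase complex, differed by -0.58 ± 0.31.

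The proteasome and atrophy list also leaned to the low class, with 4 of 24 genes higher and 20 lower in the high class, 4 of them at an unadjusted p under 0.05, and a median of -0.15. Its mean level was 7.09, 7.42 and 7.61 in the high class, against 7.44, 7.57 and 7.67 in the low class. The proteasome subunits PSMC1 and PSMD12 differed by -0.37 ± 0.13 and -0.36 ± 0.13, and UBE2D1, a ubiquitin-conjugating enzyme, by -0.38 ± 0.17. With COL1A1 alone as the score, the median was -0.03.

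In the growth hormone and IGF list 13 of 19 genes were higher. MSTN (myostatin), the secreted inhibitor of muscle growth, was dim, with 1.90, 2.25 and 2.68 in the high class, against 2.09, 2.76 and 3.45 in the low class, a difference of -0.56 ± 0.19. IGFBP5, an IGF-binding protein of muscle and matrix, had 7.48, 7.95 and 8.53 in the high class, against 7.03, 7.43 and 7.93 in the low class, a difference of 0.54 ± 0.19. IGF2, the fetal-type growth factor whose muscle expression is a known quantitative trait in pigs, had 14 probe sets, of which 13 were higher in the high class, 8 at an unadjusted p under 0.05, with a median of 0.39. Its brightest probe set had 12.65, 12.81 and 12.91 in the high class, against 12.31, 12.61 and 12.88 in the low class, and differed by 0.23 ± 0.12.

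Of the genes outside the lists with the smallest p, NFIC, a transcription factor of the nuclear factor I family, had 7.18, 7.33 and 7.89 in the high class, against 6.68, 6.87 and 7.07 in the low class. The classes did not overlap, the difference was 0.57 ± 0.12, and the adjusted p was 0.233. ACTG1 (cytoplasmic gamma actin) had 10.21, 10.42 and 10.73 in the high class, against 9.56, 9.99 and 10.06 in the low class, a difference of 0.53 ± 0.12 that 2 of its 3 probe sets did not share in direction. AGPAT1, an enzyme of phospholipid and triglyceride synthesis, differed by 0.63 ± 0.16 with all 6 probe sets higher.

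The other genes of smallest p on the high side differed by 0.66 ± 0.15 for NFKBIE, an inhibitor of NF-kappa-B, by 0.53 ± 0.12 for PLXDC1, by 0.49 ± 0.12 for ICMT, by 0.64 ± 0.16 for CYP20A1 and by 0.63 ± 0.15 for HK1 (hexokinase 1), of whose 4 probe sets 2 were higher. Each overlapped between classes.

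Among the genes lower in the high class with the smallest p, SPOPL, an adaptor of a ubiquitin ligase, had 3.39, 3.93 and 4.45 in the high class, against 3.94, 5.01 and 5.10 in the low class. The ranges overlapped through 1 low-class array, all 4 probe sets pointed the same way, and the difference was -0.95 ± 0.20. RNF141, a ring finger protein, had 3.74, 4.20 and 4.59 in the high class, against 4.52, 4.89 and 5.55 in the low class, a difference of -0.69 ± 0.16.

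With each gene represented by its brightest probe set, these were the 2 genes whose slope on the score passed the adjusted threshold over all tested probe sets: SPOPL fell by 1.73 and RNF141 by 1.31 log2 units per unit of score, each with an adjusted p of 0.024 in limma's fit. SPOPL kept that call in 18 of 27 alternatives and RNF141 in 19 of 27, with the direction the same in all of them.

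RORA, a nuclear receptor of the clock and of lipid metabolism, had 6.18, 6.43 and 6.68 in the high class, against 6.63, 7.10 and 7.77 in the low class, a difference of -0.66 ± 0.15. SOX6, which represses slow fibre genes in mouse muscle, had 2.16, 2.31 and 3.08 in the high class, against 3.04, 3.14 and 3.63 in the low class, below the background controls, and differed by -0.75 ± 0.20. MEF2A, a myocyte enhancer factor, differed by -0.58 ± 0.15 with 4 of 6 probe sets lower. NCOA2, a coactivator of nuclear receptors, had 5.14, 5.53 and 5.72 in the high class, against 5.72, 5.99 and 6.21 in the low class; it just failed to overlap and differed by -0.53 ± 0.14.

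The remaining genes of smallest p on the low side were PPP2R3C at -0.66 ± 0.14, ZSCAN12 at -0.59 ± 0.12 (1 of its 2 probe sets went the other way), ZNF514 at -0.46 ± 0.10, INO80C at -0.55 ± 0.14, STX17 at -0.61 ± 0.16 and CPSF2 at -0.51 ± 0.13.

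Beyond these genes, 6 further probe sets had a slope past the adjusted threshold. The unnamed SNOWBALL_000154_st had 9.995, 10.27 and 10.53 in the high class, against 9.37, 9.51 and 9.94 in the low class, without overlap, and a slope of 1.16 (adjusted p = 0.00612); it kept its call in 28 of 28 alternatives. The unnamed SNOWBALL_020864_st had a slope of 2.41 and kept its call in 26 of 28, and SNOWBALL_000152_s_st a slope of 0.96 and kept it in 23 of 28. A further IGF2 probe set rose with the score by 0.99 per unit and kept its call in 12 of 28. The unnamed SNOWBALL_023946_st fell by 1.16 per unit and kept its call in 12 of 28, and a dim probe set of BCL2 fell by 1.96 and kept its call in 20 of 27, while the brightest BCL2 probe set differed between classes by 0.01. The annotation used here gave the unnamed probe sets no gene. Only probe sets carrying the symbol of a score gene were left out of the test. Whether an unnamed probe set measures a score gene was not tested, and in that case its slope would set the score against itself.

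**Figure D4:**
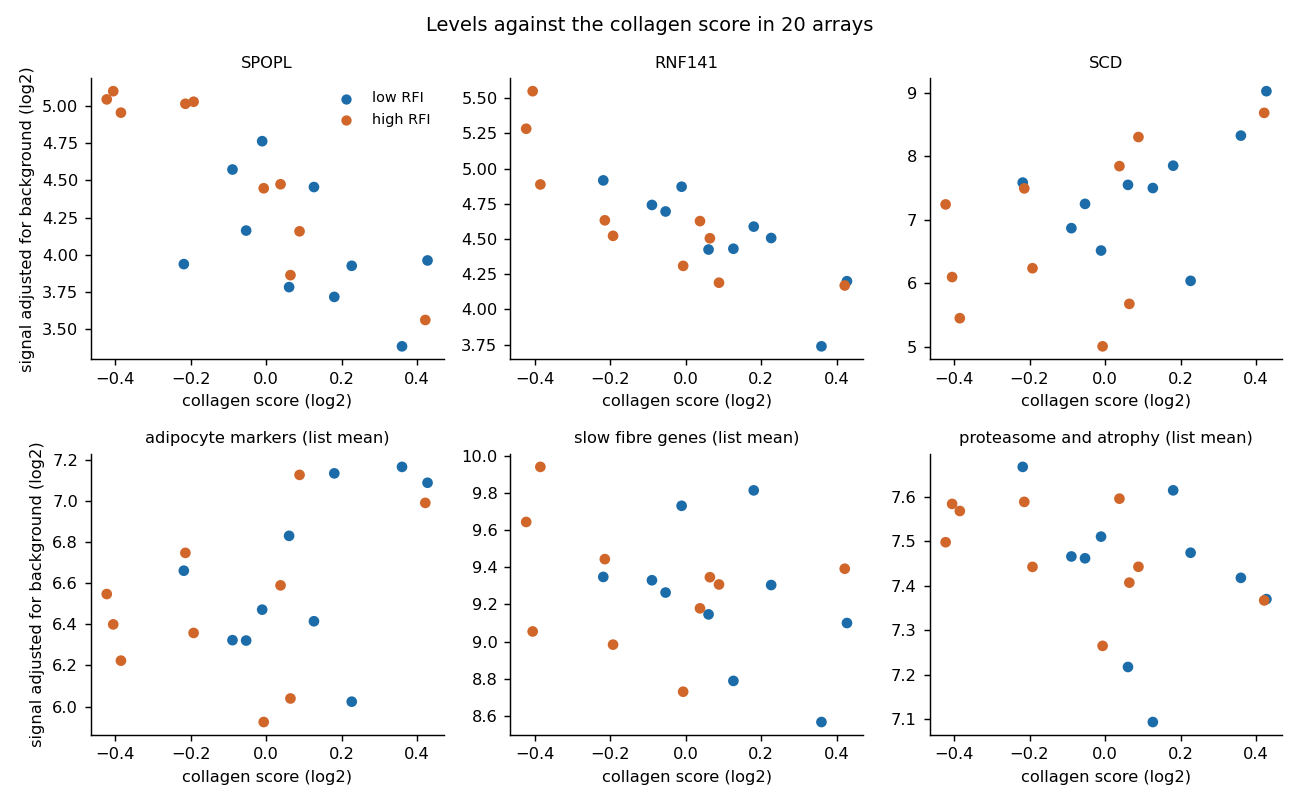
Background-adjusted log2 signal (vertical axes) of SPOPL, RNF141 and SCD and mean level of 3 gene lists against the collagen score (horizontal axis, log2) in 20 arrays, blue for low RFI and orange for high RFI. SPOPL and RNF141 fall along the score in both RFI groups, SCD and the adipocyte list are high in the 3 arrays of highest score, although a high-class array has an adipocyte level of 6.02, below the whole low class, and the slow fibre and proteasome lists are widely scattered.

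With the hybridisation controls as a second covariate, an alternative added after the data were seen, all 78 named genes kept their direction, but 15 had a difference more than 1.5 times smaller and 7 one more than 1.5 times larger. SERPINH1 then differed by 0.03, SMAD3 by 0.07, SEC24D by 0.10, PAX7 by 0.10, IGFBP5 by 0.16, DAG1 by 0.16, ACTG1 by 0.29, COL5A1 by 0.30, ADIPOQ by 0.57, ACACA by 0.62 and SCD by 0.78. DPP4 differed by -0.10, PAX5 by -0.09 and NCOA2 by -0.30. Larger values were reached by COL14A1 at 0.24, BMP1 at 0.45, IGF2 at 0.47, CCDC80 at 0.51, PSMC1 at -0.57, MYOZ2 at -1.02 and PLN at -1.18. The median of the fibroblast list was 0.19 in that fit, of the fibril-associated collagens 0.19, of the other fibrillar collagens 0.30, of the type VI and other non-fibrillar collagens 0.15, of the procollagen folding genes 0.04, of the growth hormone and IGF list 0.03, and of the smooth muscle and pericyte markers -0.13.

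Within each RFI group the classes could be compared only between 5 and 2 arrays in low RFI and between 2 and 5 in high RFI. Within low RFI 0 genes (0%) and within high RFI 0 genes (0%) passed the adjusted threshold. Of all probe sets, 1 passed within high RFI, the microRNA probe set hsa-mir-1249_x_st at -2.19 ± 0.30 (adjusted p = 0.0276), where 2 animals formed the high class. The test of whether class differences were unequal between the RFI groups called 0 probe sets, with a smallest adjusted p of 0.923; 185 genes had a positive and 172 a negative difference of differences at an unadjusted p under 0.05, against 605.7 by chance in total.

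The median of the 225 matrix genes was 0.11 within low RFI and 0.08 within high RFI, against 0.00 for all genes in each. Of the 225, 155 were higher in the high class within low RFI, 135 within high RFI and 96 in both, against 3290 of all 12114 genes in both. COL5A2 differed by 0.39 within low RFI and 0.39 within high RFI, MMP14 by 0.32 and 0.40, BGN by 0.62 and 0.28, POSTN by 0.64 and 0.71, FBLN1 by 0.40 and 0.57, and SCD by 0.64 and 1.94 in the same order. The 35 matrix genes at an unadjusted p under 0.05 in the pooled comparison were all higher in both groups, as were 500 of the 511 genes of that kind among all genes, so this count is fixed largely by their choice. Adipocyte markers had a median of 0.40 within low RFI and 0.62 within high RFI, slow fibre genes -0.24 and -0.04, and proteasome and atrophy genes -0.16 and -0.14. Over all genes, the half-width of the 95% interval had a median of 0.47 within low RFI and 0.45 within high RFI, against 0.29 in the pooled comparison. These widths hold for single genes and not for list medians.

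**Figure D5:**
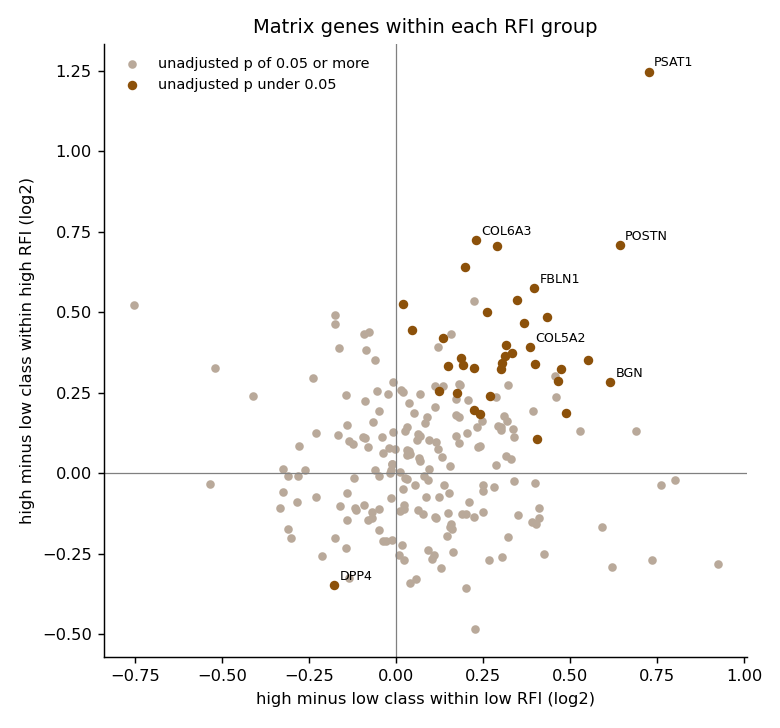
Difference of the high minus the low collagen class (log2) within low RFI (horizontal axis, 5 against 2 arrays) and within high RFI (vertical axis, 2 against 5 arrays) for 225 matrix genes; brown points are genes at an unadjusted p under 0.05 over all arrays and beige points the others. All 35 genes higher at that level lie in the upper right, DPP4 lies in the lower left, and the others scatter around a median of 0.11 within low RFI and 0.08 within high RFI.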

How the data were processed

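Labelled RNA of 20 pig muscles was measured on 1-colour Affymetrix arrays. The values are log2 signals per probe set, deposited by the authors for all arrays; their range shows the log2 scale. The submitters' processing notes list GCOS 1.1.1, and background correction and normalization are not given in the sources used here. Array means lay between 3.33 and 3.35 and the values were used as they stood.

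Of 47845 probe sets, 123 were controls, 69 of them background controls. The brightest probe set by mean stood for its gene, leaving out probe sets named after microRNAs. The platform annotation gave 26426 probe sets 1 symbol, 0 several and 21419 none; 446 old symbols were updated. Non-control probe sets with a mean above the 30th percentile (1.75) were tested, without 8 of the score genes, which left 33397. Classes of 7 arrays (high, low) and 6 between them were fitted over all 20 arrays with the array background as covariate in limma 3.58.1 (R 4.3.3, 2-sided), with Benjamini-Hochberg adjustment and a threshold of 0.05; slopes on the score and class-by-RFI fits used the same model. Levels are residuals from the background regression plus the gene's mean. The fits were tested on simulated data. Figures used matplotlib 3.10.9.

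The classes, members and lists were chosen with earlier results of these data known. Named genes were the collagen chains, the 12 genes of smallest p in each direction, up to 5 members of each of 14 matrix lists and 3 of other lists. Pairwise correlations of arrays lay between 0.916 and 0.978. Alternatives are given in the closing section.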

Additional observations from a re-analysis of the deposited data

Results flagged for a closer look

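In 13 of the 236 classes of named genes, list means and array measures examined, 1 array stood far from the other 6 of its class, by the ratio of its gap to the class range; chance gives about 1 in 20, so a pattern over these arrays is not claimed. In the low class, COL6A3 was at 7.36 in high RFI animal 2, with the next array at 9.03, TIMP2 at 7.80 in high RFI animal 8, PPP2R3C at 3.98 and PAX5 at 3.99 in low RFI animal 2, and DAG1 at 8.67 in high RFI animal 1. In the high class, INO80C was at 5.39 in low RFI animal 9, GREM1 at 4.93 in low RFI animal 3 and DPP4 at 4.48 in high RFI animal 10. Of the list means, that of small leucine-rich proteoglycans was 5.91 and that of procollagen export and precursor supply 5.82 in low RFI animal 6, the array of highest score. Glucocorticoid response genes averaged 7.82 in low RFI animal 10 of the high class and 7.77 in high RFI animal 8 of the low class. Red blood cell markers averaged 3.88 in high RFI animal 1 of the low class.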

How the results depend on the processing

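No gene passed the adjusted threshold between classes under any alternative with classes, leaving out each array included (0 to 0 higher and 0 to 0 lower); with the slope on the score in place of classes 2 genes were lower. The counts at an unadjusted p under 0.05 were 406 to 588 higher (main value 511) and 325 to 638 lower (396) with 1 array left out, the extremes without high RFI animals 2 and 9. The lower count was 612 with 5 against 5 arrays, 627 without the 4 arrays of highest background and 621 for slopes, and with a mean of at least 5 the counts were 304 higher and 143 lower, where fewer genes were tested. The main fit called 4 positive and 4 negative slopes among probe sets. It called 1 and 0 without the background covariate, 2 negative with RFI as a term, 7 positive with no filter, 52 and 18 with a mean of at least 5, 2 positive after cyclic loess, 1 and 8 with the hybridisation controls as a covariate, and 11 negative without the 4 arrays of highest background. With 1 array left out there were 2 to 10 positive slopes and 0 to 17 negative ones, both at their fewest without high RFI animal 1 and again without low RFI animal 8, with 0 negative also without high RFI animal 3, and both at their most without high RFI animal 9; the cause was not tested. Within RFI groups, leaving out 1 array gave 0 to 1 called probe sets for classes in low RFI, 0 to 2 in high RFI and 0 to 1 for their difference, and the slope within high RFI called 1 without the 4 arrays of highest background. Of 78 named genes, 76 kept their direction under 36 alternatives; with the adipocyte markers as covariate, a set that holds both genes, ADIPOQ was at -0.19 and PLIN1 at -0.049. The median of the 14 matrix lists stayed between 0.07 and 0.15, that of adipocyte markers between 0.05 and 0.48, and that of slow fibre genes between -0.47 and -0.02. With COL1A1 alone as the score the medians of the other fibrillar, the fibril-associated and the type VI lists were -0.02, -0.03 and -0.02. No paired analysis was possible because replicate numbers only follow the order of the samples. Dim probe sets limit what can be seen: 55.7% of those tested had a mean above the background controls.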
